A study of Mus musculus with 2 samples.

Results

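The neuronal cytoskeleton and growth genes described here are 9 of the 46983 genes in the deposited matrices, taken by their symbols: Stmn2, Prph, Gap43, Basp1, Tubb3, Elavl3, Elavl4, Vim and Th. Each symbol matched 1 row, and all 9 are protein-coding. The samples were 2 single-cell libraries of tdTomato-positive islet cells sorted from the pancreas of mice at 9 days of age. The Isl1CKO library came from Neurod1 Cre/+; Isl1f/f mice and the control library from Neurod1 Cre/+; Isl1f/+ mice, so that control cells also carried the Cre allele and 1 floxed copy of Isl1. The product of Isl1 is a LIM-domain transcription factor that both endocrine cells and many neurons use, and Cre was expressed from the Neurod1 locus, which is active in endocrine cells and in neurons. Each library was a pool of 6 animals, so there was 1 library per genotype and no replicate error. Genotype and library therefore cannot be told apart, and no test between the genotypes was possible.

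Endocrine cells of the islet share part of their gene programme with neurons, including proteins of regulated secretion, of microtubules and of intermediate filaments. Tubb3 is a neuron-enriched β-tubulin, and Stmn2 is a stathmin that binds tubulin dimers in growing axons. Prph (peripherin) and Vim (vimentin) are type III intermediate filament proteins, Prph being typical of peripheral neurons and Vim of mesenchymal and immature cells. Gap43 and Basp1 encode membrane-bound proteins of the growth cone, while Elavl3 and Elavl4 encode neuronal RNA-binding proteins of the Hu family. Th, tyrosine hydroxylase, catalyses the rate-limiting step of catecholamine synthesis and is known to be made by a subset of islet cells.

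The Isl1CKO library held 3020 cells with 78068592 UMIs (unique molecular identifiers, each standing for 1 captured RNA molecule) and a median of 24906.5 UMIs per cell. In the control library 2504 barcodes with at least 6825 UMIs were taken as cells, with 72548173 UMIs and a median of 22638.5. Islet hormones took 12.2% of UMIs in the Isl1CKO library, against 53.3% in the control library. Levels are given as CPM, a gene's UMIs over all UMIs of the cells named on a per-million scale. Brackets hold exact 95% intervals, which cover counting error only. Isl1 itself stood at 461 CPM in Isl1CKO cells and 253 CPM in control cells. Over UMIs outside hormones it stood at 524.5 and 542.0 CPM. These are 3′ counts and the labels do not say which exons are floxed, so they check neither the deletion nor the label. The libraries shared 4 barcodes, 0.132% of Isl1CKO and 0.160% of control cells.

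Cells were classed by the share of their UMIs that fell on 1 gene or a pair of genes. Of the Isl1CKO cells, 383 were insulin-high (Ins1 and Ins2 at 20% or more), 1445 Ttr-high (5% or more), 2035 Fev-positive (3 UMIs or more) and 494 Chgb-high (4% or more), and 276 met no class rule. Ttr encodes transthyretin, abundant in alpha cells, Fev a transcription factor of endocrine precursors and serotonergic cells, and Chgb a granin of secretory granules. The control library had 898 insulin-high, 617 Gcg-high (10% or more), 539 Sst-high (5% or more) and 465 cells of no class. The Isl1CKO library held 2 Gcg-high and 6 Sst-high cells, too few for a level. In the Isl1CKO library 1573 cells met more than 1 rule, against 15 in the control library, so Isl1CKO classes overlap. All 8 endocrine markers checked, Neurod1 and Pax6 among them, had UMIs in both libraries. So did all 8 beta cell markers in insulin-high cells of both libraries. All 8 alpha cell markers had UMIs in Ttr-high and control Gcg-high cells, and all 4 delta cell markers in control Sst-high cells. These lists hold Ins1, Ins2, Gcg, Ttr, Sst and Chgb, by which the classes were cut, and 1 UMI sufficed. The counts therefore do not check what the classes are.

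The upstream windows of Prph and Basp1 are shown because they belong to members whose levels over all cells differed between the libraries in opposite directions. The Prph difference rested on 2 control barcodes, described below, that held 127 of the 133 control Prph UMIs. RefSeq windows were found for 7 of the 9 members. Both genes lie on chromosome 15. The windows hold the 250 bases before the annotated start, on the gene's strand (GRCm38.p6, RefSeq), Prph at chr15:99054924-99055173 on the + strand and Basp1 at chr15:25413765-25414014 on the − strand. Capitals mark matches to the TATA box TATAAA and the GC box GGGCGG or its reverse complement.
Prph: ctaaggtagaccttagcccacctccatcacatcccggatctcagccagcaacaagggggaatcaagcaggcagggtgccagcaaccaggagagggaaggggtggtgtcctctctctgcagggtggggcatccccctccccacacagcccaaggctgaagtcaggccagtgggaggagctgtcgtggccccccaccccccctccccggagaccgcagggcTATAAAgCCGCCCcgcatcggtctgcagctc
Basp1: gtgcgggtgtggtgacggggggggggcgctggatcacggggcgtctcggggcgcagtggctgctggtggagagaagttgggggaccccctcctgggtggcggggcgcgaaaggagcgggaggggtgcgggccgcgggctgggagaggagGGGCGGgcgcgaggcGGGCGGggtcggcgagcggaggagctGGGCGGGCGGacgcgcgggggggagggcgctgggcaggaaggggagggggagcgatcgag
The Prph window held TATAAA 31 to 26 bases before the start and 1 reverse GC box 24 to 19 bases before it. The Basp1 window held 4 GC boxes, beginning 101, 86, 60 and 56 bases before the start, the last pair overlapping by 2 bases, and no TATAAA on either strand. Over 32851 RefSeq windows of 250 bases, 12.4% held TATAAA and 32.7% held GGGCGG on either strand. A match is a description of the letters and says nothing of a factor.

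Stmn2 (chromosome 3, 8509360 to 8561606, + strand, GRCm38) and Prph (chromosome 15, 99055174 to 99058978, + strand) were nearly absent from endocrine cells of either library. Stmn2 had 9 UMIs in the Isl1CKO library, 0.115 CPM (0.0527 to 0.219), against 291 UMIs in the control library, 4.01 CPM. Prph had 5 UMIs in the Isl1CKO library, 0.064 CPM, against 133 UMIs in the control library, 1.83 CPM. A single pair of control barcodes, with 31523 and 29299 UMIs, carried most of the control UMIs of both genes.

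These barcodes held 152 and 129 Stmn2 UMIs, together 96.6% (93.8 to 98.3) of the control Stmn2. They held 69 and 58 Prph UMIs, 95.5% (90.4 to 98.3) of the control Prph. Both barcodes also carried some of the neuron markers. Phox2a, a homeobox gene of autonomic neurons, had 28 and 9 UMIs in them, and Hand2, a transcription factor of sympathetic and enteric neurons, had 12 and 10. Chat was at 0 in both, Vip at 0 and 2 and Nos1 at 0 and 33. Hormones made up 0.187% and 0.215% of their UMIs. They held 40 and 54 UMIs of 5 neuron markers (Phox2a, Hand2, Chat, Nos1 and Vip), while the next highest control cell had 7 and the highest Isl1CKO cell 4. Neither barcode had a UMI of Isl1 or Neurod1. One of them had 1431 UMIs of Gal, which encodes the neuropeptide galanin, and the other had none. Of the other members they held 43 and 62 Gap43 UMIs, 37 and 25 Elavl4, 34 and 45 Tubb3, 13 and 23 Basp1, 7 and 6 Elavl3, 0 and 25 Vim and no Th.

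**Figure D1:**
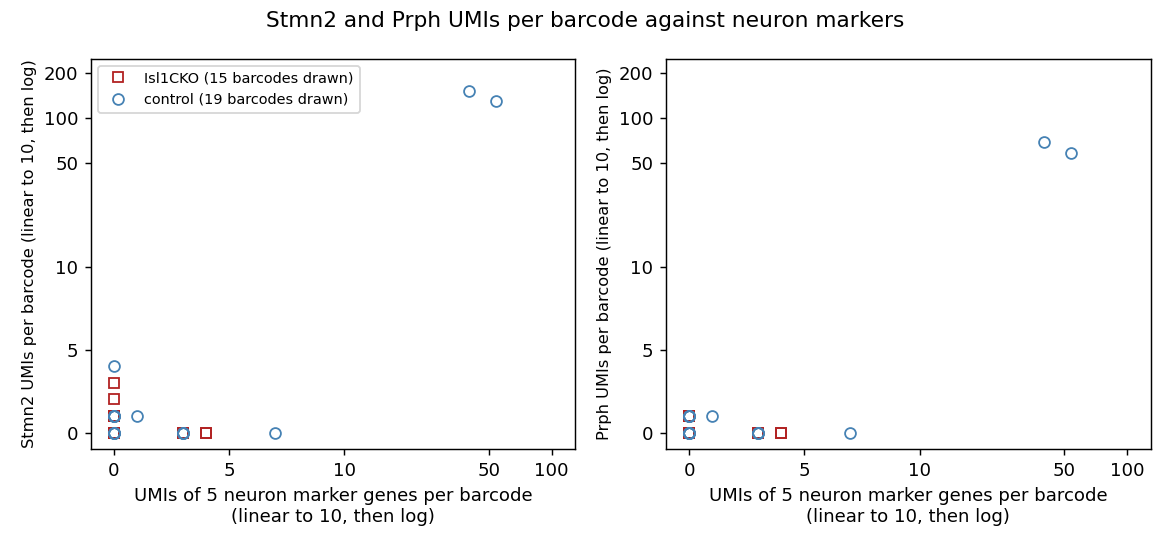
Stmn2 and Prph UMIs per barcode against the UMIs of 5 neuron markers, for the 15 Isl1CKO barcodes and 19 control barcodes drawn (axes linear to 10, then logarithmic). The 2 control barcodes with 40 and 54 neuron marker UMIs stand apart from all others with 129 to 152 Stmn2 and 58 to 69 Prph UMIs.

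Outside these barcodes Stmn2 and Prph were at or near the detection floor. Stmn2 was found in 6 Isl1CKO cells and never above 3 UMIs in one of them, and no UMI fell in the 383 Isl1CKO insulin-high cells. In the control library it was absent from all 617 Gcg-high cells, so that at 3 counts the share of cells with a UMI could be up to 0.486%, and had 1 UMI in insulin-high and 7 in Sst-high cells. All 5 Isl1CKO Prph UMIs were in Ttr-high cells, 1 per cell, and 1 control Prph UMI was in insulin-high and 2 in Sst-high cells. Background RNA, read from control barcodes with fewer than 200 UMIs, held Stmn2 at 2.09 CPM and Prph at 0.453 CPM, above the level of each class of the rule for Stmn2. The 33 control cells with Chgb at 4% or more had 4 Stmn2 UMIs, 6.31 CPM (1.72 to 16.1), but all 4 were in 1 cell, so the level is not one of the class. With the 2 neuron-marker barcodes left out, Stmn2 and Prph stood at −0.84 and −0.95 on the log2 scale relative to the median gene, each on under 50 UMIs, in place of −5.70 and −5.42.

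**Figure D2:**
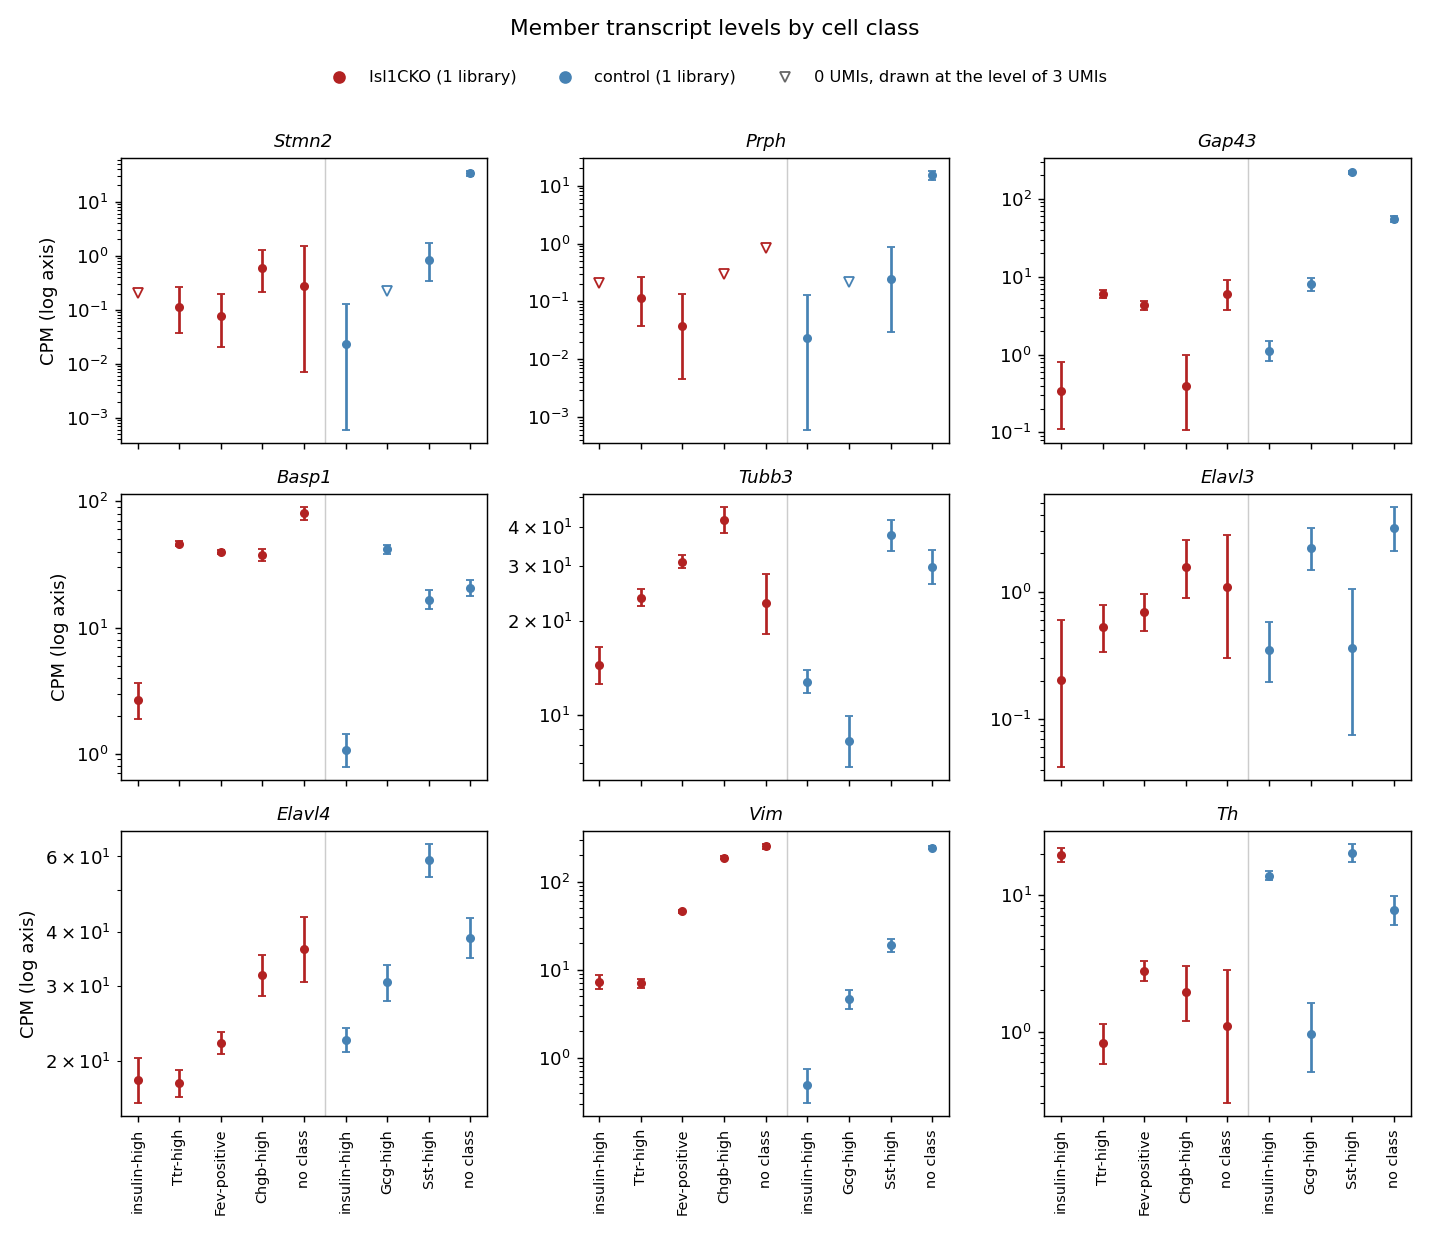
CPM (log axis) of the 9 members in each class, Isl1CKO in red left of control in blue, with exact 95% Poisson intervals; triangles mark classes with 0 UMIs, drawn at the level of 3 UMIs. Gap43 is highest in control Sst-high cells (219 CPM), and Basp1 in Isl1CKO cells of no class, then in Ttr-high and Gcg-high cells. Vim is highest in Chgb-high cells and cells of no class, and Th in insulin-high and Sst-high cells.

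Gap43 (chromosome 16, 42248442 to 42340651, − strand), a growth cone protein that binds calmodulin, was mostly an RNA of control Sst-high cells. It stood at 4.06 CPM over all Isl1CKO cells, against 33.2 CPM over all control cells. Control Sst-high cells reached 219 CPM (209 to 230) and held 75.4% of the control Gap43 UMIs. A Gap43 UMI was found in 67.7% of them (63.6 to 71.7), at a median depth of 14481 UMIs, and in 44.2% after thinning each cell to 4000 UMIs. In control cells with mesenchyme markers, at a median of 8121 UMIs, the share was 2.04%.

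The level in control Sst-high cells was much the same whether or not they also made the gamma cell hormone gene Ppy, 217 CPM with Ppy and 221 CPM without. Control Ppy-high cells low in Sst had 47.9 CPM (42.4 to 53.9). Cells without a class had 55.2 CPM, Gcg-high cells 8.07 CPM (6.63 to 9.72) and insulin-high cells 1.12 CPM (0.827 to 1.49). Of the 470 Gap43 UMIs in control cells without a class, 105 were in the 2 neuron-marker barcodes. No class rule used Ppy, so cells without a class can include Ppy-high cells. Among Isl1CKO classes the level was 5.99 CPM (5.29 to 6.76) in Ttr-high, 4.28 in Fev-positive, 0.391 (0.107 to 1.00) in Chgb-high and 0.341 in insulin-high cells, the last resting on 5 UMIs. Isl1CKO Ttr-high cells held 82.6% of that library's Gap43. Since the Isl1CKO library had 6 Sst-high cells, with 3 Gap43 UMIs in 1 of them, fewer cells of a type and less RNA per cell cannot be told apart in the sum over all cells.

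**Figure D3:**
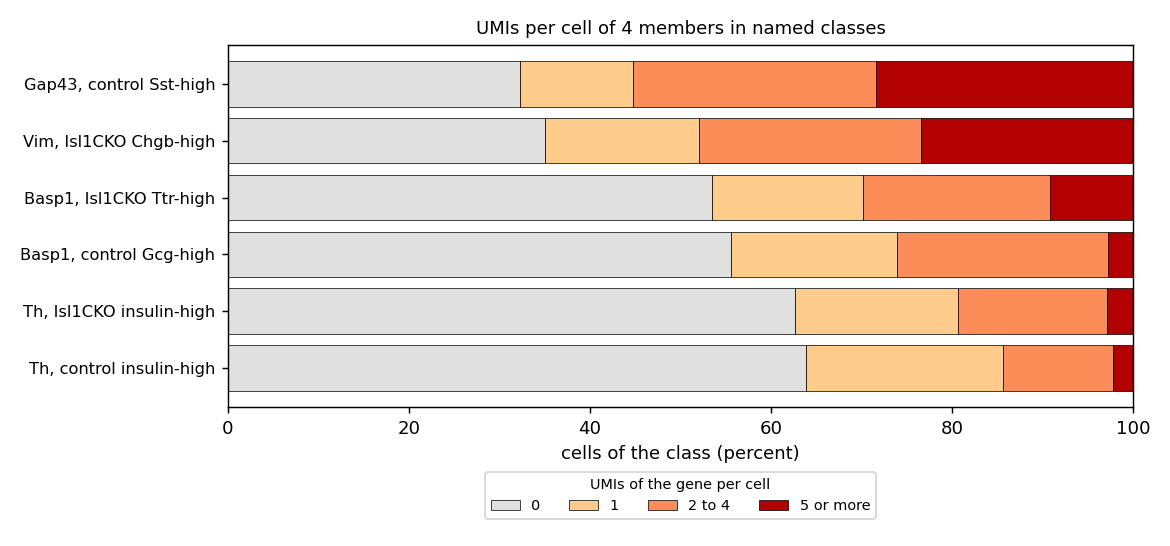
Share of cells (percent) with 0, 1, 2 to 4 or at least 5 UMIs of 4 members in named classes, as stacked bars. Control Sst-high cells have 0 Gap43 UMIs in 32.3% and at least 5 in 28.4%, and Isl1CKO Chgb-high cells have 0 Vim UMIs in 35.0% and at least 5 in 23.5%.

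Basp1 (chromosome 15, 25363277 to 25413764, − strand), a second growth cone protein that is like Gap43 a substrate of protein kinase C, had a different distribution. Over all cells it stood at 39.6 CPM in Isl1CKO cells, against 12.6 CPM in control cells. It was highest among the hormone-rich control classes in Gcg-high cells, at 41.9 CPM (38.5 to 45.5), which held 62.7% of the control UMIs. Isl1CKO Ttr-high cells had 46.3 CPM (44.3 to 48.3) and held 65.5% of the Isl1CKO UMIs. A Basp1 UMI was present in 46.5% of Isl1CKO Ttr-high cells and 44.4% of control Gcg-high cells, or 15.4% and 17.0% after thinning.

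Relative to the median gene, Basp1 differed by −0.03 (−0.17 to 0.11) on the log2 scale between Isl1CKO Ttr-high and control Gcg-high cells. Cells with at least 5 Basp1 UMIs made up 9.20% of Isl1CKO Ttr-high cells and 2.76% of control Gcg-high cells, which differ in median depth (29017 and 21125 UMIs). Insulin-high cells of both libraries were low, with 2.66 CPM (1.89 to 3.63) in Isl1CKO cells and 1.08 CPM (0.787 to 1.43) in control cells, at the greatest median depths of any class (38693 and 48339.5 UMIs). In Isl1CKO cells the level was 39.7 CPM in Fev-positive, 37.6 CPM in Chgb-high and 80.2 CPM (71.3 to 90.0) in cells of no class, and in control cells it was 16.7 CPM in Sst-high cells and 20.6 CPM in cells of no class. Cells with mesenchyme markers stood higher, at 128 CPM in 24 Isl1CKO cells and 55.6 CPM in 49 control cells. The level in control cells of no class includes the 2 neuron-marker barcodes, which held 36 of the 911 control Basp1 UMIs.

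Tubb3 (chromosome 8, 123411424 to 123422015, + strand) had UMIs in each class of endocrine cells given here. Its level was 26.5 CPM over all Isl1CKO cells and 16.7 CPM over all control cells. In Isl1CKO cells it was 14.4 CPM (12.6 to 16.5) in insulin-high, 23.8 (22.3 to 25.2) in Ttr-high, 30.9 (29.5 to 32.5) in Fev-positive and 42.0 (38.2 to 46.2) in Chgb-high cells. In control cells it was 8.29 CPM (6.83 to 9.96) in Gcg-high, 12.8 (11.7 to 13.9) in insulin-high, 29.7 in cells of no class and 37.6 (33.5 to 42.0) in Sst-high cells. Insulin-high cells of the 2 libraries thus had overlapping intervals, and so did Isl1CKO Chgb-high and control Sst-high cells. The level in control cells of no class includes the 2 neuron-marker barcodes, which held 79 of the 1215 control Tubb3 UMIs. Background RNA of the control matrix held Tubb3 at 7.80 CPM (6.24 to 9.63), an interval that overlaps that of control Gcg-high cells. The level in those cells therefore cannot be told from background.

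Isl1CKO Ttr-high cells stood above control Gcg-high cells by 1.34 (1.06 to 1.64) on the log2 scale, with a Tubb3 UMI in 39.0% and 15.2% of cells, or 8.17% and 2.11% after thinning. The 113 control cells with Ttr at 5% or more had 7.08 CPM. Within the Isl1CKO library, cells that were Ttr-high only had 17.9 CPM (15.5 to 20.6), those that were Ttr-high and Fev-positive 26.0 (24.2 to 27.8), and those that were Fev-positive only 43.4 (38.9 to 48.2). No Tubb3 UMI was found in 49 control cells with mesenchyme markers, so that at 3 counts the share of cells with a UMI could be up to 6.12%, at a median depth of 8121 UMIs.

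Elavl4 (chromosome 4, 110203722 to 110351909, − strand), also called HuD, stabilises neuronal mRNAs and had UMIs in each class of endocrine cells given here. It had 22.0 CPM over all Isl1CKO cells and 29.9 CPM over all control cells. Isl1CKO classes ran from 17.7 CPM (16.5 to 19.0) in Ttr-high and 18.1 (15.9 to 20.4) in insulin-high cells through 22.0 in Fev-positive to 31.7 (28.3 to 35.3) in Chgb-high cells. The first pair did not differ beyond counting error. Control classes ran from 22.4 CPM (21.0 to 23.9) in insulin-high and 30.5 (27.6 to 33.6) in Gcg-high to 58.8 (53.7 to 64.3) in Sst-high cells. Background RNA of the control matrix held Elavl4 at 25.5 CPM (22.6 to 28.6), an interval that overlaps those of control insulin-high and Gcg-high cells. The levels in those cells therefore cannot be told from background. Elavl4 had 0 UMIs in 49 control cells with mesenchyme markers and 1 UMI in 24 such Isl1CKO cells.

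Elavl3 (chromosome 9, 22015005 to 22052023, − strand), also called HuC, had 55 UMIs in the Isl1CKO library and 75 in the control library. Its counts are uncertain because the gene shares exon sequence on its strand with the predicted gene Gm49318. In Isl1CKO cells the highest level was 1.56 CPM (0.894 to 2.54) in Chgb-high cells, on 16 UMIs. Control cells of no class had 3.17 CPM (2.09 to 4.62), on 27 UMIs of which the 2 neuron-marker barcodes held 13. Control Gcg-high cells had 2.20 CPM (1.48 to 3.14), on 30 UMIs, with an overlapping interval, and insulin-high cells had 0.351 CPM. Control Gcg-high cells with cell cycle transcripts had 5.06 CPM (2.89 to 8.21), against 1.34 CPM in the other Gcg-high cells.

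Vim (chromosome 2, 13573927 to 13582826, + strand) was high in cells with mesenchyme markers and, apart from those, in Chgb-high cells. Over all cells it had 46.3 CPM in the Isl1CKO library and 31.9 CPM in the control library. The 24 Isl1CKO cells with mesenchyme markers, at 3350 CPM, held 21.8% of that library's Vim UMIs, and 49 such control cells, at 3075 CPM, held 64.4%. Without these cells the levels were 36.3 CPM in Isl1CKO and 11.4 CPM in control cells, and cells of no class stood at 58.8 CPM in Isl1CKO and 73.9 CPM in control cells, in place of 254 CPM and 244 CPM.

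Isl1CKO Chgb-high cells had 187 CPM (179 to 196) and held 53.0% of the Isl1CKO Vim, with a UMI in 65.0% of cells (33.4% after thinning) and up to 70 in a cell. Their sum of 9 mesenchyme marker genes was 20 UMIs, 1.96 CPM, with Lum, Pdgfra, Pdgfrb and Acta2 at 0. The 33 control cells with Chgb at 4% or more had 241 CPM (205 to 283) of Vim, with a UMI in 69.7% of cells. Vim was thus high in Chgb-high cells of both libraries. Isl1CKO cells that were both Fev-positive and Chgb-high had 224 CPM, those Chgb-high only 173 CPM, those Fev-positive only 55.2 CPM and those Ttr-high only 3.03 CPM. Control Sst-high cells had 19.0 CPM (16.1 to 22.2) and control Gcg-high cells 4.62 CPM.

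Insulin-high cells had 7.29 CPM (5.97 to 8.81) of Vim in the Isl1CKO library, against 0.491 CPM (0.304 to 0.750) in the control library, at 1.83% and 0 of cells after thinning. Relative to the median gene the difference was 3.48 (2.79 to 4.23) on the log2 scale, or 11.2-fold. It did not hold at that size in cells that met the insulin rule alone. These had 10 UMIs in 233 Isl1CKO cells, 1.11 CPM (0.533 to 2.04), against 0.496 CPM (0.307 to 0.758) in 890 control cells, and the intervals overlap. In 125 Isl1CKO cells that were both insulin-high and Fev-positive the level was 11.1 CPM (8.33 to 14.6). Mesenchyme markers summed to 7 UMIs in Isl1CKO insulin-high cells, 0.477 CPM, with Col1a1, Col1a2, Dcn, Lum and Pdgfra at 0, and to 44 UMIs, 1.03 CPM, in control insulin-high cells.

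Th (chromosome 7, 142892752 to 142931128, − strand) was an RNA of insulin-high cells in both libraries and of Sst-high cells in the control library. Its level over all cells was 4.61 CPM in the Isl1CKO library and 11.5 CPM in the control library. Isl1CKO insulin-high cells had 19.6 CPM (17.4 to 22.0) and control insulin-high cells 13.8 CPM (12.7 to 14.98), holding 80.0% and 70.9% of their libraries' Th. Relative to the median gene this was a difference of 0.09 (−0.12 to 0.30) on the log2 scale, which turned to −0.22 with the class threshold halved and was 0.56 after thinning. A Th UMI was found in 37.3% of Isl1CKO and 36.2% of control insulin-high cells, or 7.83% and 4.57% after thinning.

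Control Sst-high cells had 20.3 CPM (17.3 to 23.6) of Th, control cells of no class 7.76 CPM and control Gcg-high cells 0.953 CPM, and the neuron-marker barcodes had none. The other Isl1CKO classes were low, with 0.823 CPM in Ttr-high, 1.96 in Chgb-high and 2.77 in Fev-positive cells. A UMI was present in 2.15% of Isl1CKO Ttr-high cells and 2.11% of control Gcg-high cells, at median depths of 29017 and 21125 UMIs.

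Set against the median gene, which itself stood 0.58 higher on the log2 scale in CPM of Isl1CKO cells, 1 of the 9 members was at least 2-fold higher over all cells and 6 were at least 2-fold lower. Of 14420 genes with at least 50 UMIs, 5.21% were higher and 6.82% lower by this rule of size, which is not a test. Basp1 was the member higher, by 1.08 (0.97 to 1.18) on the log2 scale. The lower members were Stmn2, Prph, Gap43 by −3.61 (−3.78 to −3.44, and −2.21 with cells of several hormones left out), Th by −1.90 (−2.08 to −1.72), Elavl3 by −1.13 (−1.66 to −0.61) and Elavl4 by −1.02 (−1.11 to −0.93). Tubb3, at 0.08 (−0.02 to 0.19), and Vim, at −0.04 (−0.12 to 0.03), were within 2-fold. Without the 2 neuron-marker barcodes 2 members were called lower, Gap43 and Th. With CPM not set against the median gene Elavl3 and Elavl4 stood at −0.55 and −0.44, with CPM over UMIs outside hormones Basp1 stood at 0.75, and with cells of other types left out Vim stood at 1.05.

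The makeup of the libraries differed, so each class was compared in turn. In insulin-high cells, Isl1CKO over control, 1 of the 4 members with enough UMIs was higher (Vim) and 0 lower, beside 4.97% and 4.73% of 10080 genes. Tubb3 stood at −0.24 (−0.47 to −0.01), which turned to 0.18 with CPM not set against the median gene, and Elavl4 at −0.73 (−0.93 to −0.53). Gap43 and Basp1 had too few UMIs there, 5 and 39 in Isl1CKO cells against 48 and 46 in control cells. In Isl1CKO Ttr-high over control Gcg-high cells, classes cut by different genes, 1 of 5 was higher (Tubb3) and 0 lower, beside 8.66% and 7.21% of 11977 genes. The Tubb3 difference was 0.97 with CPM over UMIs outside hormones. Gap43 stood at −0.60 (−0.93 to −0.27), which turned to 0.11 with cells of several hormones left out. Elavl4 stood at −0.96 (−1.13 to −0.78) and Vim at 0.42 (0.03 to 0.84), which turned to −0.18 with the deepest 5% of cells left out.

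**Figure D4:**
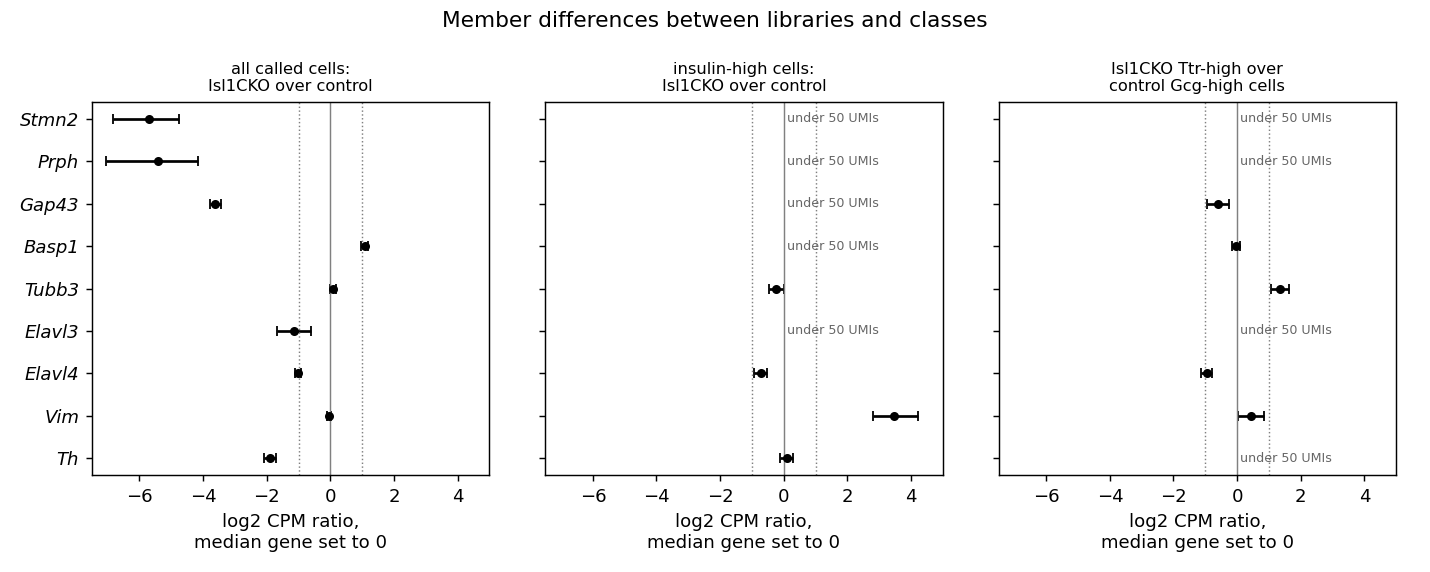
Log2 ratio of CPM relative to the median gene for the 9 members, with 95% intervals, in all called cells, in insulin-high cells (both Isl1CKO over control) and in Isl1CKO Ttr-high over control Gcg-high cells; dotted lines mark 2-fold and members under 50 UMIs are named as such. Stmn2 and Prph are lowest over all cells, at −5.70 and −5.42, and Vim is highest in insulin-high cells, at 3.48.

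Within the Isl1CKO library, Fev-positive cells were set against the other cells. Of 6 members compared, 0 were higher and 1 lower, beside 0.316% and 1.94% of 12979 genes. The lower one was Th, at 2.77 CPM in Fev-positive cells against 8.50 CPM in other cells, a difference of −1.85 (−2.16 to −1.54). Of the 213 Th UMIs in the other cells, 201 were in cells that were insulin-high only. Cells that were Fev-positive only had 2.41 CPM (1.45 to 3.76) of Th. Those Ttr-high only had 0.367 CPM (0.0999 to 0.939), and cells of no class 1.10 CPM (0.300 to 2.81). Tubb3 stood at 30.9 CPM in Fev-positive cells against 17.0 CPM in other cells, 0.63 (0.48 to 0.79) relative to the median gene. Vim stood at −0.22, and between −1.35 after thinning and 1.27 with cells of other types left out.

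Chgb-high cells were set against the other Isl1CKO cells in the same way. Of 6 members, 1 was higher and 2 lower, beside 3.66% and 10.5% of 12117 genes. Vim had 187 CPM in Chgb-high cells against 25.0 CPM in the others, 2.69 (2.59 to 2.78) relative to the median gene. Gap43 had 0.391 CPM in Chgb-high cells against 4.61 CPM in the others, a difference of −3.78 (−5.66 to −2.40). Th had 1.96 CPM (1.19 to 3.02) in Chgb-high cells against 5.01 CPM in the others, −1.57 (−2.30 to −0.92). Insulin-high cells held 80.0% of the Isl1CKO Th, and Ttr-high cells, at 0.823 CPM (0.576 to 1.14), stood below Chgb-high cells. Tubb3, at 42.0 CPM in Chgb-high cells and 24.1 CPM in the others, stood at 0.59 (0.43 to 0.74).

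Related genes were read from 7 lists, 5 of which include members. Over all cells, 2 of 14 stathmins and tubulins were higher and 1 lower, with a median of 0.45 on the log2 scale relative to the median gene, beside 5.21% and 6.82% of all genes compared. The higher ones were Tubb4a, a β-tubulin, at 22.5 CPM in Isl1CKO cells and 6.24 CPM in control cells, and Tubb6. Of 15 intermediate filament genes 2 were higher and 4 lower. Nefm, the medium neurofilament chain, had 162 CPM in Isl1CKO cells and 27.0 CPM in control cells, 2.01 (1.94 to 2.08) relative to the median gene, and the light chain Nefl had 70 UMIs in Isl1CKO cells and 8 in control cells, 2.44 (1.39 to 3.71), which thinning took to 0.30. Krt19, a keratin of ducts, stood at −1.99, and the muscle filament genes Des and Synm at −2.34 and −2.36.

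Among 28 microtubule-associated and growth cone genes, 2 were higher and 7 lower over all cells, with a median of −0.33. Dpysl4, of the collapsin response mediator family, had 11.6 CPM in Isl1CKO cells and 1.34 CPM in control cells. Its relative Dpysl3 stood at −2.06 and the adhesion gene Cntn1 at −1.94. Of 20 neuronal RNA-binding genes 1 was higher (Celf5, at 1.35) and 3 lower, with Khdrbs2 beside Elavl3 and Elavl4. Of 11 monoamine genes 2 were higher and 2 lower. Tph1, the serotonin-synthesis enzyme of islets, had 10.1 CPM in Isl1CKO cells and 2.23 CPM in control cells, the vesicular transporter Slc18a1 stood at 1.13, and Maob, which degrades amines, at −1.76. Of 17 genes of the REST list, REST being a repressor of neuronal genes, 2 were higher and 1 lower. Rest itself had 0.551 CPM in Isl1CKO cells and 1.31 CPM in control cells, and the secretory granule precursor Vgf had 260 CPM in Isl1CKO cells and 21.0 CPM in control cells. None of 16 cell cycle genes was called over all cells.

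In insulin-high cells, Isl1CKO over control, the same lists gave 1 higher and 1 lower of 11 stathmins and tubulins, 2 and 2 of 10 intermediate filament genes, 1 and 2 of 17 growth cone genes, 1 and 0 of 13 RNA-binding genes, 1 and 1 of 8 monoamine genes and 2 and 0 of 14 REST list genes, beside 4.97% and 4.73% of all genes compared. Rbfox3, the neuronal splicing factor known as NeuN, had 11.7 CPM in Isl1CKO and 1.64 CPM in control insulin-high cells, 2.43 (2.02 to 2.85) relative to the median gene. Marcksl1, which like Gap43 and Basp1 binds membranes and actin, had 24.7 CPM in Isl1CKO and 6.50 CPM in control insulin-high cells. Stmn1 stood at −1.70 and was the lower stathmin. Cell cycle genes were lower in 10 of 15, with a median of −1.16 and Mki67 at −3.02. Cycling cells made up 2.35% of Isl1CKO and 8.80% of control insulin-high cells. Over the alternatives, with cycling cells left out among them, Stmn1 stood between −2.96 and −1.29. How large a part cycling cells had in its difference was not tested.

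Between Isl1CKO Ttr-high and control Gcg-high cells, 3 of 13 stathmins and tubulins were higher and 0 lower, with a median of 0.63, and 5 of 11 intermediate filament genes were higher and 0 lower, with a median of 0.70, beside 8.66% and 7.21% of all genes compared. Stmn3 had 28.1 CPM in Isl1CKO Ttr-high and 10.3 CPM in control Gcg-high cells, and Nefm 251 CPM in Isl1CKO Ttr-high and 78.4 CPM in control Gcg-high cells. The growth cone list had 1 higher and 6 lower of 23, with a median of −0.51, including the kinesin Kif5c at −1.44 and the microtubule-associated protein Map1a at −1.44. The RNA-binding list had 1 higher and 1 lower of 16, and Elavl2, the third neuronal Hu gene, had 2.697 CPM in Isl1CKO Ttr-high and 11.6 CPM in control Gcg-high cells. The monoamine list had 2 higher and 1 lower of 9, with Tph1 at 3.48, the REST list 3 higher and 2 lower of 15, with the glutamate receptor subunit Gria2 at −2.21, and the cell cycle list 0 higher and 2 lower of 16.

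Chgb-high cells differed from the other Isl1CKO cells in 4 higher and 3 lower of 25 growth cone genes, with a median of 0.35, beside 3.66% and 10.5% of all genes compared. Mapt, which encodes tau, had 17.8 CPM in Chgb-high cells and 4.22 CPM in the others, and Kif5c had 53.6 CPM in Chgb-high cells and 19.0 CPM in the others. Stathmins and tubulins were lower in 3 of 13, with Stmn1 at −2.96, and intermediate filament genes were higher in 1 and lower in 2 of 10, with Nefm at −1.87. The RNA-binding list had 1 higher and 1 lower of 16, the monoamine list 2 higher and 1 lower of 10, with Slc18a1 at 39.0 CPM in Chgb-high cells and 7.06 CPM in the others, and the REST list 1 higher and 1 lower of 15. Of 16 cell cycle genes 14 were lower, with a median of −4.09. In the Fev-positive comparison Th was the single called gene of the 7 lists.

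Genes whose levels were most like each member's were sought across 9 classes that do not overlap, over 11183 genes, by Pearson's r of log2(CPM + 1). This is a description with no test, and the classes of a library share its depth and background RNA. Prph and Stmn2 were alike at r = 0.990, a value that rests on control cells of no class, where the 2 neuron-marker barcodes held 281 of 283 Stmn2 and 127 of 130 Prph UMIs, and Reg4 and Myh11 were next to them at 0.990 and 0.977 with Stmn2. Gap43 was closest to Ehf (0.979), Ttc39c and Smco4, Basp1 to Homer1 (0.993), Ubn1 and Golga3, and Tubb3 to S100a10 (0.978), Ormdl3 and Hmox2. Elavl4 was closest to Kazn (0.980), Sema3c and Fam69b, Elavl3 to Map3k14 (0.947) and Id1, Vim to Vps37c (0.965), Fzd1 and Cmtm3, and Th to Adra2a (0.908), Pard3b and Rbp2. Gap43 and Basp1, both growth cone genes, had r = 0.269, and Basp1 and Th r = −0.780.

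Co-occurrence within a class was read in cells thinned to 4000 UMIs, where most cells had 0 UMIs of a member. Over pairs of members Pearson's r lay between −0.0823 and 0.0943. The part of sparse counts in these values was not tested. The pairs named here are a selection from those read, with Vim pairs of wide gaps among them. In Isl1CKO Ttr-high cells, Vim was found in 7.48% (3.28 to 14.2) of cells with an Elavl4 UMI and 1.12% (0.629 to 1.84) of cells without one. In Isl1CKO Chgb-high cells the same pair went the other way, at 24.6% (14.5 to 37.3) and 34.6% (30.2 to 39.3). In Isl1CKO Fev-positive cells, Vim was found in 17.7% (13.2 to 23.1) of cells with a Tubb3 UMI and 10.1% (8.72 to 11.6) of cells without one. Fev-positive cells include 386 that met the Chgb rule as well and no other, with 224 CPM of Vim. Their part in this gap was not tested. In Isl1CKO Chgb-high cells, Vim was found in 46.8% (35.3 to 58.5) of cells with a Tubb3 UMI and 30.9% (26.5 to 35.6) of cells without one. In control Sst-high cells, Gap43 was found in 36.7% of cells with a Tubb3 UMI and 45.4% of cells without one. Background RNA held Gap43 at 26.4 CPM, Vim at 25.7 CPM, Elavl4 at 25.5 CPM, Basp1 at 11.3 CPM, Tubb3 at 7.80 CPM and Th at 7.25 CPM in control barcodes under 200 UMIs, a level read from the control matrix alone.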

How the data were processed

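The data are single-cell 3′ RNA counts of tdTomato-positive islet cells, 1 library per genotype, each a pool of 6 animals at 9 days of age. The tissue was dissociated with actinomycin D, an inhibitor of transcription, according to the labels' protocols. The authors deposited whole-number UMI counts per gene and barcode, not normalized. GRCm38.p6 is the genome build in the submitters' processing notes, which list Seurat 4.3.0.1 next to STARsolo and STAR 2.7.3a without saying which step each tool served. No Isl1CKO barcode had fewer than 4882 UMIs among the 3020 listed, whereas 6794880 barcodes were listed for the control. Control barcodes with at least 6825 UMIs, 1/10 of the 99th percentile over the 3000 deepest, were taken as cells, and every Isl1CKO barcode was kept. No doublet caller was used, and alternatives left out the deepest 5% of cells and cells with several hormones.

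UMIs were summed per class and scaled to CPM. Levels have exact Poisson, shares Clopper-Pearson and ratios conditional binomial intervals at 95%. These cover counting error only, so a share or ratio from 1 library has no replicate error. Ratios are log2 CPM ratios minus that of the median gene, over genes with at least 50 UMIs in the group with the higher CPM, and a gene was called at 2-fold or more. Shares were also read after each cell had been thinned at random to 4000 UMIs. Cells with at least 0.5% of UMIs on 9 mesenchyme markers, at least 10 UMIs of 5 neuron markers or at least 5 of the cell cycle list were counted under those names. The class rules, the members and all lists were chosen with earlier results of these data known, and the neuron marker rule was chosen after the data were seen. The genes named are the members, from each list up to 4 of the highest and up to 4 of the lowest called genes, and the 3 genes most like each member by Pearson's r over genes with at least 200 UMIs; 1 of these like genes is not reported here. The ratio calculation was tested on simulated data. Calculations ran in Python 3.11.15 with pandas 2.3.3, scipy 1.17.1 and numpy 2.4.6, and figures were drawn with matplotlib 3.10.9. Alternatives changed the scaling, the minimum, the depth, the class rules and the cells kept.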

Additional observations from a re-analysis of the deposited data

Results flagged for a closer look

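The control matrix held 872 barcodes with at least 1000 UMIs below the threshold for cells, with a median of 2159.5 UMIs and 20.4% mitochondrial UMIs. They stand outside the comparisons above and carried UMIs of 7 members above the limit that a count of 0 allows. Vim had 522 UMIs in 61 of these barcodes, 238 CPM, against 31.9 CPM in control cells. Elavl4 had 127 UMIs in 96 barcodes, 57.8 CPM, against 29.9 CPM in control cells. Gap43 had 54 UMIs, Basp1 26, Th 15, Tubb3 14 and Elavl3 4. Stmn2 had 2 UMIs and Prph none.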

How the results depend on the processing

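With 1 library per genotype no replicate could be left out. No paired analysis was possible because each genotype had 1 library and no result came from a test. Over 30 member ratios and their alternatives, 335 of 423 values stayed within the counting interval of the value reported, 88 moved outside it and 401 kept its sign; of 621 member levels by class 515 stayed within it. Over all cells, 1 member was higher as reported, but 0 with CPM over UMIs outside hormones, with the mean of per-cell CPM or after thinning, and 2 with cells of other types left out. The 6 lower members became 2 after thinning or without the neuron-marker barcodes. Calls over all genes also moved with the setting, over the ranges given below. The changes in member counts in this paragraph are therefore not read as results about the members. In insulin-high cells, 0 lower became 2 at a minimum of 10 UMIs or with no minimum and 1 with the class threshold halved, and 1 higher became 0 after thinning and 2 with the threshold halved. For Ttr-high over Gcg-high cells, 1 higher became 0 with CPM over UMIs outside hormones, and 0 lower became 1 with that scaling, at a minimum of 10 UMIs, with no minimum, after thinning, without cycling cells or with the threshold 1.5 times as high. For Fev-positive cells, 1 lower became 2 with the mean of per-cell CPM or no minimum, and 0 higher became 1 after thinning or with cells of other types left out. For Chgb-high cells, 1 higher became 2 at a minimum of 10 UMIs and 4 with no minimum, and 2 lower became 0 after thinning. Thinning leaves fewer UMIs per gene, and the cause of these changes was not tested.

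Of 1144 values of the named list genes, 1050 stayed past 2-fold and 5 changed sign. After thinning, Nefl stood at −0.78 for Ttr-high over Gcg-high cells and at 0.0082 for Chgb-high cells, where Khdrbs2 stood at 0.59. With cycling cells left out, Mki67 stood at 0.028 for Ttr-high over Gcg-high cells and Ckap2l at 0.47 for Chgb-high cells. Over all genes and cells, 357 to 2444 genes were called higher and 468 to 2457 lower, and the higher ones were 22.8% to 82.8% of calls. In insulin-high cells these were 116 to 1384, 115 to 1378 and 40.9% to 81.3%, and for Ttr-high over Gcg-high cells 456 to 1969, 499 to 2507 and 23.2% to 68.7%. For Fev-positive cells they were 24 to 636, 119 to 1384 and 9.09% to 33.1%, and for Chgb-high cells 228 to 2162, 561 to 2182 and 22.4% to 49.8%.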
